A study of Homo sapiens with 27 samples.

Results

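The 10 genes GREB1, PGR, PDZK1, MYB, CXCL12, AREG, NRIP1, CA12, RET and SIAH2 are classical estrogen-induced target genes, chosen by name from 60619 Ensembl genes and described in every group of libraries of the series. MDA-MB-134VI (MM134) and SUM44PE (SUM44) are cell lines of human invasive lobular carcinoma (ILC) that express the estrogen receptor (ER). Long-term estrogen-deprived (LTED) variants had been kept for months in medium with charcoal-stripped serum, which is depleted of steroid hormones, and each variant is 1 independently derived culture. For RNA-Seq, 3 wells per group were taken. The groups were the SUM44PE parental culture in its own medium, SUM44F (SUM44PE cells moved to the medium used for MM134) and its variants SUM44 LTED-A and SUM44 LTED-B, and parental MM134 with 4 variants, LTED-A, -B, -D and -E. Before collection the parental cultures spent 3 days without hormone, so all groups lacked added estrogen and the comparison is of short against long deprivation. The labels name no separate derivations for the wells of a group, so p-values measure the spread between wells of 1 culture.

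Estrogen acts on breast epithelial cells largely through ERα, the nuclear receptor encoded by ESR1. Bound by its ligand, the receptor sits at estrogen response elements and at tethering sites, many of them distant enhancers opened by FOXA1 and GATA3, and recruits coactivators that raise transcription of nearby genes. The genes described here are among those most often used to read that activity: they encode ER cofactors (GREB1, NRIP1), transcription factors (PGR, MYB), secreted ligands and a receptor (AREG, CXCL12, RET), and enzymes or scaffolds of the cytoplasm and membrane (CA12, PDZK1, SIAH2).

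Library totals ran from 28583554 to 134882175 counts (median 44018412). In SUM44 LTED-A the counts of replicates 2 and 3 showed a difference smaller than sampling noise, and their mean was used as 1 sample, which leaves n = 2 there. By chi-squared per degree of freedom, against sampling noise, replicate 1 of SUM44 LTED-A differed from replicates 2 and 3 more than any other replicates of a group differed (58.3 and 56.7). This measure grows with depth and was not adjusted for it. Replicates 2 and 3 were the deepest libraries, at 134882175 and 111689734 counts, so the ranking partly reflects depth. Levels are given in CPM, the counts of a gene relative to the library total, scaled by TMM factors over the 26 samples. Within SUM44F the chi-squared per degree of freedom was 42.9 and 39.3 between replicate 3 and replicates 1 and 2, and 14.2 between replicates 1 and 2. By single genes, replicate 1 of SUM44F stood apart from the other 2 SUM44F libraries. In it 142 of 17033 genes were at least 3-fold above both others, against 0 and 35 for replicates 2 and 3. The 6 fibroblast markers tested (COL1A1, COL1A2, COL3A1, DCN, LUM and PDGFRB) summed to 361 CPM there, against 8.39 and 9.47 CPM in the other 2, where LUM had 0 and 1 counts. Their sum was between 5.03 and 35.9 CPM in every other group. The 4 endothelial markers summed to 44.8 CPM in this library, against 25.8 and 31.3 CPM in the others, and the 6 immune markers to 8.65 CPM, against 1.95 and 2.11 CPM. In MM134 the immune sum moved with the groups, from 0.429 to 1.10 CPM in parental cells to 14.1 to 15.4 CPM in LTED-A, 6.68 to 7.47 CPM in LTED-B, 3.97 to 4.69 CPM in LTED-D and 2.52 to 3.52 CPM in LTED-E. This was CD68, a lysosomal protein, called higher in all 4 variants (log2 fold changes from 3.66 to 6.11). The other 5 markers (PTPRC, CD3E, CD14, CD79A and TYROBP) summed to at most 0.648 CPM in any MM134 library, with at most 14 counts each, and CD3E and TYROBP were at 0 in every LTED-A and LTED-B library. The 6 luminal markers (KRT8, KRT18, KRT19, EPCAM, ESR1 and GATA3) summed to between 3968 and 7767 CPM over all groups. Results on SUM44F cells are given without this library wherever it changes them, and its part in them was not tested otherwise.

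The stretches directly before a RefSeq transcription start of 3 of the genes are shown because PDZK1 and AREG were lower and CA12 higher in LTED cells. They are the 250 bases before that start, 5′ to 3′ on the strand of the gene, on GRCh38.p14. PDZK1 is chr1:145707401-145707650 on the minus strand, AREG chr4:74444886-74445135 on the plus strand and CA12 chr15:63381847-63382096 on the minus strand, and none overlaps an annotated exon. The PDZK1 window lies inside the gene bounds of the GENCODE annotation (145670852 to 145708148), so its RefSeq start is an internal one. Capitals mark GGTCA, the core of the estrogen response element, the GC box GGGCGG (which reads CCGCCC on the other strand) and the TATA box TATAAA.
PDZK1: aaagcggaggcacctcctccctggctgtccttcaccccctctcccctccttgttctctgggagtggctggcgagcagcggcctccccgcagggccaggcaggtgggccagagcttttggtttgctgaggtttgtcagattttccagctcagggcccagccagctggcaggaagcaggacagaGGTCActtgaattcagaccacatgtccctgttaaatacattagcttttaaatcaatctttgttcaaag
AREG: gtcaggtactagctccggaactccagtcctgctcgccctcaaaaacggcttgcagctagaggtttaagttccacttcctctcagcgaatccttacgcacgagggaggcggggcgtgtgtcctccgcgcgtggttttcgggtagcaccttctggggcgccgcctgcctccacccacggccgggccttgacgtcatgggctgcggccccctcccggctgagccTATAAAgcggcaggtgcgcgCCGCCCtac
CA12: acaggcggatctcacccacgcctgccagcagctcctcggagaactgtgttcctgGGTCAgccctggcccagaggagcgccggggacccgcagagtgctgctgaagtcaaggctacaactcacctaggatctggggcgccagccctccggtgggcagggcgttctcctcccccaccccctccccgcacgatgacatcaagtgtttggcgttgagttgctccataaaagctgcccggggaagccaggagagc
RefSeq windows were found for 9 of the 10 genes, not for GREB1. The full palindrome GGTCANNNTGACC was in 0 of these 9, and in 0.0399% of all 35116 windows of that length. GGTCA alone, on either strand, was in 3 of 9 (PDZK1, CXCL12 and CA12), against 32.6% of all windows. It ended 63 bases before the RefSeq start of PDZK1, 203 before that of CXCL12 and 191 before that of CA12. Like that of PDZK1, the windows of CXCL12 and SIAH2 lie inside the GENCODE gene bounds. The GC box was in 7 of 9 windows (42.6% of all) and TATAAA, read on the strand of the gene, in 1 of 9, that of AREG, 23 bases before the start (6.8% of all). The AP-1 motif TGANTCA, at which ER can be tethered, was in 0 of 9 (6.57% of all). These are matches of letters in short windows and say nothing of distant enhancers.

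The call required a change of over 1.5-fold and an adjusted p under 0.001 (edgeR quasi-likelihood test, Benjamini-Hochberg over all genes tested), and fold changes are on the log2 scale. The 10 genes passed the filter on low counts in each fit. CXCL12 and PGR passed in SUM44 through the parental libraries, and PGR passed in MM134 through parental cells and LTED-B. The 4 MM134 variants are all compared with the same 3 parental libraries, and both SUM44 variants with the same 3 SUM44F libraries, so the comparisons within a line are not independent. In MM134 LTED-A, 6 of the 10 genes fell and 0 rose, where 9.82% of all genes fell and 10.5% rose. In LTED-B, 5 fell and 2 rose (7.75% and 8.11% of all genes). In LTED-D, 5 fell and 1 rose (7.95% and 9.63%). In LTED-E, 6 fell and 0 rose (10.3% and 8.71%). The median log2 fold change of the 10 genes was -1.09, -0.61, -0.60 and -1.00 in the 4 variants, against -0.0067, 0.02, -0.03 and 0.02 for all genes tested. SUM44, where the SE of every member was larger than in MM134, gave fewer calls and a different balance. AREG in SUM44 LTED-A (-1.48, edgeR adjusted p = 0.00171) and PDZK1 in SUM44 LTED-B (-0.80, adjusted p = 0.00382) passed the fold minimum and missed on adjusted p. In SUM44 LTED-A, 1 of the 10 genes fell and 2 rose, where 7.28% of all genes fell and 6.39% rose, and the median of the 10 was 0.01 (-0.06 for all genes). In SUM44 LTED-B, again 1 fell and 2 rose (8.57% and 8.69% of all genes), with a median of 0.22 (-0.09 for all genes). Over the 40 pairs of gene and variant in MM134, 22 were called lower and 3 higher, and over the 20 pairs in SUM44, 2 lower and 4 higher. The falls in MM134 include 4 of PGR, and those in LTED-A, LTED-D and LTED-E are a description, as given with that gene. They also enter the counts and medians of those variants, and the medians in SUM44 include PGR and CXCL12. No tally without these genes was made. PGR and CXCL12 in SUM44 depend on the SUM44F library that stood apart and are taken up with those genes. Without that library PGR was called lower in both SUM44 variants as well, and the other calls of members there stayed as they were.

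**Figure D1:**
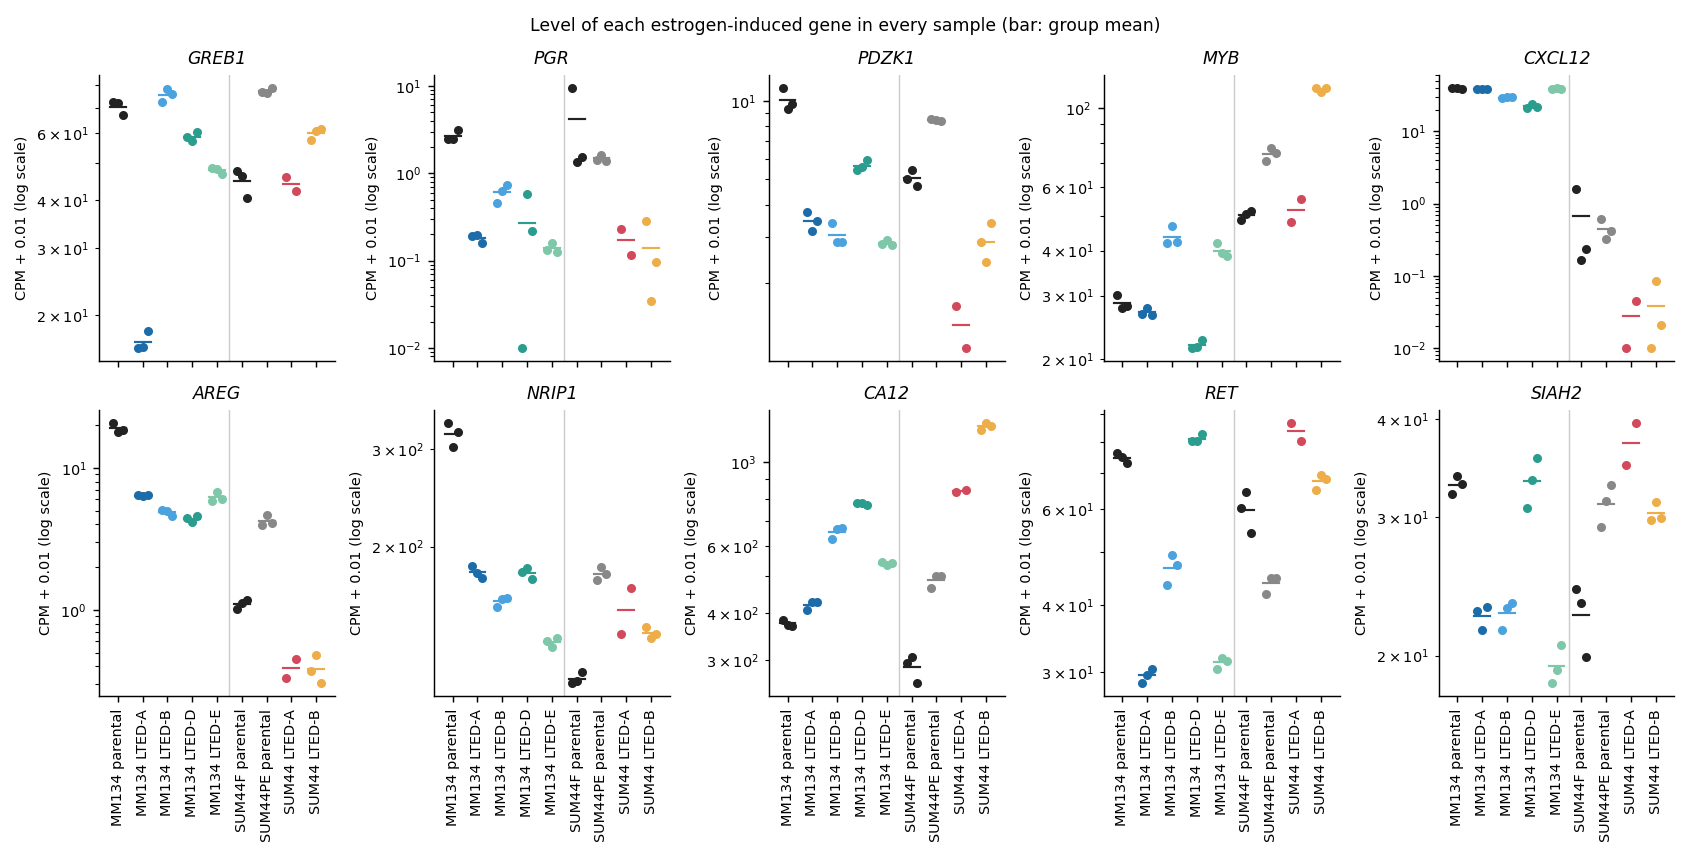
Level of each gene in every sample, as CPM plus 0.01 on a log axis that differs between panels, by group; points are samples, bars group means, and the grey line separates the cell lines. PGR and AREG sit lower in every LTED sample than in the parental cells of the same line, CA12 is highest in SUM44 LTED-B, and 1 SUM44F library is far above the other 2 for PGR and CXCL12.

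**Figure D2:**
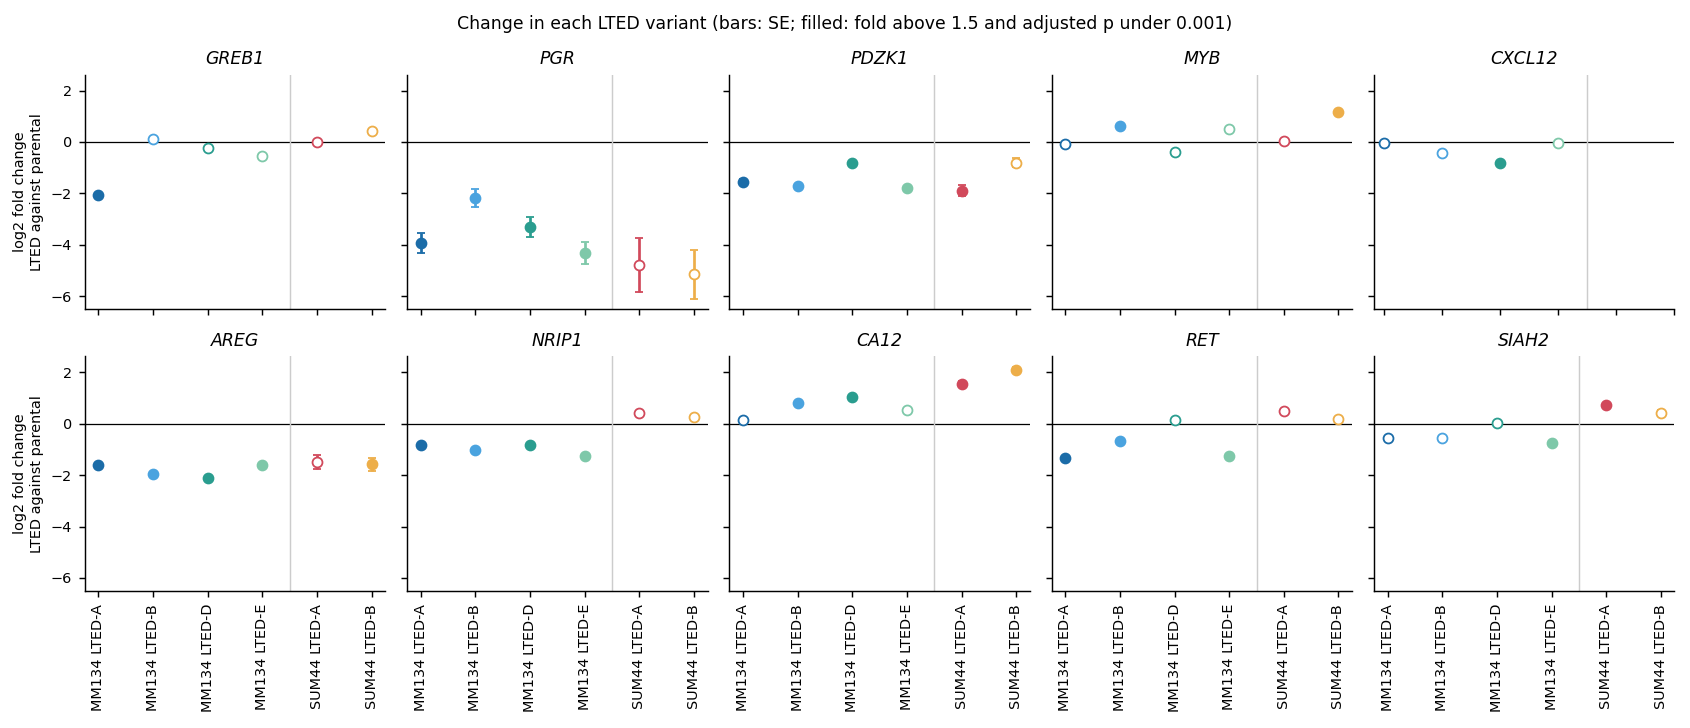
Log2 fold change of each gene in the 6 LTED variants against the parental cells of the line, with its SE as a bar. Filled points passed both thresholds of the call, and CXCL12 is left out in SUM44, where both LTED groups had a mean of at most 3 counts. AREG, PGR and PDZK1 lie below 0 in all 6 variants, and CA12 above 0 in all 6. NRIP1 lies below 0 in every MM134 variant and above 0 in both SUM44 variants. GREB1, MYB, RET and SIAH2 fall on different sides of 0 in the 2 lines for at least some variants.

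ESR1 itself fell in 1 MM134 variant and rose in both SUM44 variants. In MM134 it was at 372, 350 and 364 CPM in parental cells and at 148, 153 and 150 CPM in LTED-A, a log2 fold change of -1.27 (SE 0.03, edgeR adjusted p = 3.37e-17). The group means were 535 CPM in LTED-B, 466 CPM in LTED-D and 265 CPM in LTED-E, with log2 fold changes of 0.57, 0.38 and -0.44 that stayed under the fold minimum; without MM134 LTED-B replicate 1 (0.59) or MM134 parental replicate 1 (0.59), ESR1 passed it in LTED-B. In SUM44, ESR1 rose from 573, 600 and 537 CPM in SUM44F cells to 1372 and 1424 CPM (LTED-A) and 1380, 1365 and 1320 CPM (LTED-B), log2 fold changes of 1.30 (SE 0.11) and 1.25 (SE 0.10) with edgeR adjusted p of 4.97e-06 and 2.79e-06. FOXA1, the pioneer factor of ER sites, was not called in any MM134 variant (log2 fold changes from -0.05 to 0.47). GATA3, a luminal transcription factor, fell in MM134 LTED-A and LTED-E (-0.65 and -1.01, edgeR adjusted p 1.38e-06 and 4.73e-09). In SUM44, FOXA1 was called in LTED-A (0.67, edgeR adjusted p = 0.000509) and GATA3 in both variants (1.08 and 0.85, adjusted p 0.000389 and 0.000795), and each of these calls was lost without some single library, replicate 1 of SUM44F among them (adjusted p 0.00201, 0.00148 and 0.00337), and with a replicate block (adjusted p 0.00306, 0.00176 and 0.00171).

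GREB1 (ENSG00000196208, chromosome 2, 11482341 to 11642788), an ER-bound cofactor whose transcript is a standard readout of ER activity, fell in 1 of the 4 MM134 variants. It was at 72.4, 71.8 and 66.8 CPM in parental cells and at 16.4, 16.5 and 18.2 CPM in LTED-A, to 0.241 of the parental level (log2 fold change -2.05, SE 0.04, edgeR adjusted p = 9.51e-18). The LTED-B samples were at 72.6, 78.1 and 75.9 CPM, those of LTED-D at 58.6, 57.1 and 60.5 CPM, and those of LTED-E at 48.8, 48.4 and 47.0 CPM. LTED-D and LTED-E thus lay below every parental sample while LTED-B lay above, with log2 fold changes of 0.11, -0.25 and -0.54 that did not reach the fold minimum. The order of GREB1 over the 4 LTED variants, B above D above E above A, was that of ESR1. In SUM44 the order was not shared: GREB1 was at 47.7, 46.3 and 40.6 CPM in SUM44F cells, at 46.2 and 42.4 CPM in LTED-A and at 57.5, 60.9 and 61.4 CPM in LTED-B. The log2 fold changes were -0.02 (SE 0.09, 95% interval -0.19 to 0.15) and 0.42 (SE 0.08, edgeR adjusted p = 0.0012), neither called, although ESR1 had risen in both. SUM44PE cells had the highest GREB1 of the SUM44 groups, at 76.9, 76.5 and 79.0 CPM.

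**Figure D3:**
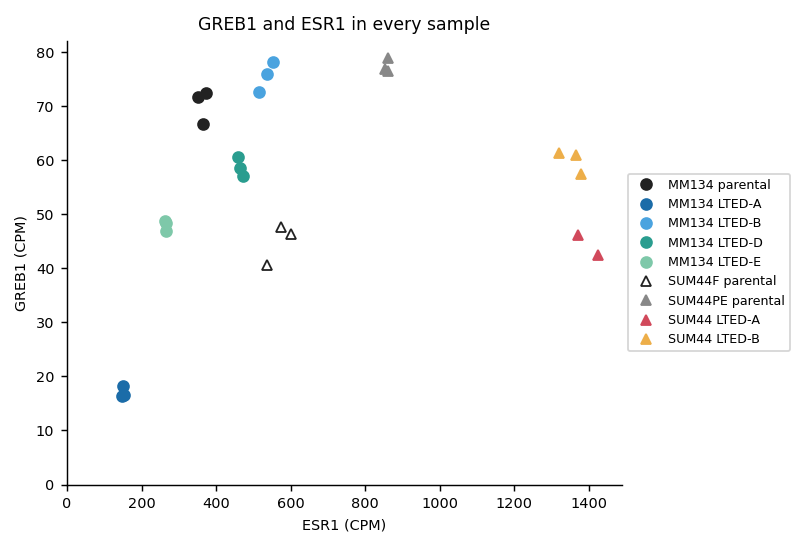
GREB1 against ESR1 in CPM, 1 point per sample, circles for MM134 and triangles for SUM44. MM134 LTED-A is lowest on both axes (ESR1 near 150 CPM, GREB1 near 17.0 CPM), whereas the SUM44 LTED samples combine the highest ESR1, above 1320 CPM, with GREB1 between 42.4 and 61.4 CPM.

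NRIP1 (ENSG00000180530, chromosome 21, 14961235 to 15065936) encodes RIP140, an ER-induced cofactor that represses transcription by liganded nuclear receptors. It was at 335, 302 and 322 CPM in MM134 parental cells. All MM134 LTED samples were lower: LTED-A had 185, 179 and 176 CPM, LTED-B 155, 161 and 161 CPM, LTED-D 180, 183 and 175 CPM, and LTED-E 135, 132 and 137 CPM. NRIP1 fell in all 4 variants, with log2 fold changes of -0.84, -1.00, -0.82 and -1.24 (SE 0.03 to 0.04, edgeR adjusted p from 8.25e-16 to 4.48e-13). In SUM44 the LTED samples lay above the parental ones instead. SUM44F cells had 113, 114 and 119 CPM, LTED-A 139 and 168 CPM, and LTED-B 143, 137 and 139 CPM. The log2 fold changes of 0.41 (SE 0.09, edgeR adjusted p = 0.00344) and 0.27 (SE 0.08, adjusted p = 0.0161) were not called, and that of LTED-A reached 0.59 with adjusted p = 0.000221, a call, without replicate 1 of SUM44 LTED-A. ENSG00000235609, an RNA gene on the same strand of this locus, had a mean of 28.6 CPM in parental MM134. It fell with NRIP1 in LTED-A and LTED-E (log2 fold changes -0.76 and -0.82, edgeR adjusted p 5.04e-10 and 3.01e-10) and was not called in LTED-B (-0.35) or LTED-D (0.29).

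PGR (ENSG00000082175, chromosome 11, 101029624 to 101129813), the progesterone receptor, is used in the clinic as a sign of a working ER. In MM134 parental cells it was at 2.46, 2.45 and 3.11 CPM. LTED-A had 0.18, 0.186 and 0.149 CPM, LTED-B 0.441, 0.614 and 0.721 CPM, LTED-D 0, 0.561 and 0.209 CPM, and LTED-E 0.123, 0.148 and 0.117 CPM. The value of 0 stands for 0 counts, which allows a level of up to 0.0968 CPM at a limit of 3 counts, and it covers counting error only. Every LTED sample was thus below every parental sample. PGR fell in all 4 variants, with log2 fold changes of -3.93 (SE 0.39), -2.17 (SE 0.35), -3.31 (SE 0.40) and -4.33 (SE 0.43) and edgeR adjusted p of 6.17e-08, 3.39e-05, 1.18e-06 and 8.99e-08. It passed the filter on low counts in MM134 through parental cells and LTED-B, where it is higher. Its falls in LTED-A, LTED-D and LTED-E are therefore a description. In SUM44F cells the 3 samples had 9.54, 1.33 and 1.52 CPM, the first from the library that stood apart. LTED-A had 0.222 and 0.105 CPM and LTED-B 0.271, 0.0247 and 0.0873 CPM, from 1 to 12 counts, all below every SUM44F sample. PGR passed the filter on low counts in SUM44 through the parental libraries, where it is high, so its changes in this line are a description. With all libraries it was not called, at log2 fold changes of -4.80 (SE 1.05, edgeR adjusted p = 0.00454) and -5.15 (SE 0.95, adjusted p = 0.00122). Without SUM44F replicate 1 the values were -3.29 (SE 0.55, edgeR adjusted p = 0.000991) and -3.64 (SE 0.51, adjusted p = 0.000245), past both thresholds, when 6.38% and 7.65% of all genes fell. In LTED-B it was also called without SUM44F replicate 2 or 3 (adjusted p 0.000536 and 0.00098). The antisense gene PGR-AS1 had from 3 to 39 counts in a library, and since the strand setting is not stated its reads cannot be told apart from those of PGR.

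MYB (ENSG00000118513, chromosome 6, 135181308 to 135219173), a transcription factor of progenitor cells that estrogen releases from a block on elongation, went both ways. Parental MM134 cells had 30.0, 27.7 and 28.1 CPM and LTED-B had 42.1, 46.9 and 42.2 CPM, a call at a log2 fold change of 0.62 (SE 0.05, edgeR adjusted p = 2.63e-09) that was lost without MM134 LTED-B replicate 2 (0.56). LTED-E had 41.9, 39.3 and 38.7 CPM (0.49), LTED-A 26.6, 27.6 and 26.5 CPM (-0.10) and LTED-D 21.4, 21.6 and 22.6 CPM (-0.37), none called. LTED-B and LTED-E lay above the parental samples and LTED-A and LTED-D below. In SUM44, MYB was at 48.6, 50.7 and 51.6 CPM in SUM44F cells, 48.2 and 55.6 CPM in LTED-A and at 114, 111 and 113 CPM in LTED-B. It rose in LTED-B (log2 fold change 1.16, SE 0.07, edgeR adjusted p = 3.66e-07) and not in LTED-A (0.05, 95% interval -0.10 to 0.20). The 20 tested genes on each side of MYB moved too: their median log2 fold change was 0.76 in SUM44 LTED-B, -0.60 in SUM44 LTED-A and 0.40 in MM134 LTED-E. Whether the copy number of this stretch differs was not tested. Around the other 9 genes the median of the 40 neighbours stayed between -0.32 and 0.23 in the 6 variants.

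AREG (ENSG00000109321, chromosome 4, 74445136 to 74455005) encodes amphiregulin, a ligand of EGFR that mediates estrogen-driven growth of the mammary duct. It was at 20.7, 18.0 and 18.5 CPM in MM134 parental cells. The 12 LTED samples of this line lay between 4.15 and 6.78 CPM: 6.38, 6.29 and 6.41 in LTED-A, 5.06, 4.93 and 4.57 in LTED-B, 4.39, 4.15 and 4.60 in LTED-D, and 5.85, 6.78 and 6.02 in LTED-E. AREG fell in all 4 variants, with log2 fold changes of -1.59 (SE 0.07), -1.97 (SE 0.07), -2.11 (SE 0.08) and -1.61 (SE 0.07) and edgeR adjusted p between 4.69e-14 and 7.68e-13. SUM44F cells had far less, at 0.998, 1.11 and 1.16 CPM, and their LTED variants less again, at 0.321 and 0.438 CPM in LTED-A and at 0.361, 0.469 and 0.295 CPM in LTED-B. The fall was called in LTED-B (log2 fold change -1.57, SE 0.25, edgeR adjusted p = 0.000481). In LTED-A the value was -1.48 (SE 0.28, adjusted p = 0.00171). The call in LTED-B was lost, at -1.38 to -1.76, when any 1 of the 3 LTED-B samples or SUM44F replicate 2 or 3 was left out, with adjusted p from 0.00101 to 0.0045, and remained without SUM44F replicate 1 (-1.64, adjusted p = 0.000903). EGFR, the receptor of amphiregulin, had at most 8 counts in any MM134 or SUM44 LTED library. In SUM44F it had 108 counts in replicate 1, the library that stood apart, and 1 and 2 counts in the others, against 15, 26 and 15 counts in SUM44PE cells, so the direction of that comparison turns with replicate 1 and no fold change is given. ADAM17, which sheds amphiregulin from the membrane, was not called in MM134 (log2 fold changes from -0.16 to 0.15) and fell in SUM44 LTED-A (-0.95, edgeR adjusted p = 1.32e-05).

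CXCL12 (ENSG00000107562, chromosome 10, 44370165 to 44386493), the chemokine SDF-1, signals through CXCR4 and is scavenged by ACKR3. MM134 parental cells had 40.5, 39.7 and 38.5 CPM. LTED-A (39.2, 39.1 and 39.1 CPM) and LTED-E (38.3, 39.6 and 38.2 CPM) overlapped them, with log2 fold changes of -0.02 in each (95% intervals -0.10 to 0.06). LTED-B was lower at 29.0, 29.7 and 29.7 CPM (-0.42, under the fold minimum), and in LTED-D CXCL12 fell to 20.8, 24.0 and 21.6 CPM (-0.82, SE 0.04, edgeR adjusted p = 9.11e-12). SUM44 cells had hardly any: 73, 8 and 20 counts in SUM44F cells (1.58, 0.156 and 0.223 CPM), 0 and 4 counts in LTED-A, and 0, 3 and 1 counts in LTED-B. At a limit of 3 counts the LTED-B libraries allow up to 0.0903, 0.0741 and 0.0327 CPM, so CXCL12 was not detectable there, and no fold change is given. It was not called in either variant (edgeR adjusted p = 0.0196 and 0.0105), and without SUM44F replicate 1 it did not pass the filter on low counts. Of its receptors, CXCR4 went from 78.3, 76.7 and 76.2 CPM in MM134 parental cells to 4.27, 4.47 and 4.63 CPM in LTED-A, to 1.25, 0.897 and 1.02 CPM in LTED-B and 0.355, 0.337 and 0.395 CPM in LTED-D, log2 fold changes of -4.12, -6.18 and -7.70 (edgeR adjusted p from 8.75e-22 to 3.69e-21). LTED-E kept 60.0, 62.1 and 64.5 CPM (-0.30, not called). In SUM44, CXCR4 rose instead, from 10.5, 10.2 and 7.90 CPM to 36.8 and 42.4 CPM (LTED-A) and 35.5, 35.3 and 35.5 CPM (LTED-B), with log2 fold changes of 2.07 and 1.90 (edgeR adjusted p 3.69e-07 and 2.92e-07). ACKR3 fell in all 6 variants, with log2 fold changes from -4.88 in MM134 LTED-E to -0.96 in MM134 LTED-B.

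RET (ENSG00000165731, chromosome 10, 43077064 to 43130351), the receptor tyrosine kinase of the GDNF family, fell in 3 of 4 MM134 variants. It was at 76.2, 74.8 and 72.9 CPM in parental cells, 28.7, 29.7 and 30.5 CPM in LTED-A, at 43.5, 49.4 and 47.4 CPM in LTED-B and 30.5, 31.9 and 31.5 CPM in LTED-E. The log2 fold changes were -1.34, -0.67 and -1.24 (SE 0.04 in each, edgeR adjusted p from 1.11e-15 to 4e-11). LTED-D, at 80.3, 80.2 and 82.5 CPM, lay above every parental sample by 0.13 on the log2 scale (adjusted p = 0.00721, not called). In SUM44 both variants lay above the parental samples: SUM44F cells had 60.3, 64.7 and 54.3 CPM, LTED-A 86.6 and 80.3 CPM and LTED-B 65.2, 69.3 and 68.2 CPM. The log2 fold changes of 0.48 (SE 0.08, edgeR adjusted p = 0.00096) and 0.18 (SE 0.07, adjusted p = 0.0773) were under the fold minimum. GFRA1, the co-receptor that presents GDNF to RET and is itself estrogen-induced, split between the lines only in part. Its sign was opposite to that of RET in MM134 LTED-D and LTED-E. It fell in MM134 LTED-A and LTED-D (-1.74 and -1.27, edgeR adjusted p 1.26e-15 and 2.86e-13), was not called in LTED-B and LTED-E (-0.32 and 0.35), and rose in SUM44 LTED-A and LTED-B (1.76 and 1.83, adjusted p 1.25e-07 and 4.21e-08). The ligand artemin (ARTN) fell in MM134 LTED-A, LTED-D and LTED-E (-1.09, -1.43 and -1.21, edgeR adjusted p 5.55e-08, 4.41e-09 and 2.23e-08). GDNF stayed under 1 CPM in all samples.

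CA12 (ENSG00000074410, chromosome 15, 63321378 to 63381846), a membrane carbonic anhydrase under the control of a distant ER-bound enhancer, lay higher in every LTED sample than in the parental cells of its comparison, in both lines. MM134 parental cells had 384, 372 and 369 CPM. LTED-B had 628, 664 and 669 CPM and LTED-D 780, 781 and 769 CPM, so CA12 rose by 0.81 and 1.06 on the log2 scale (SE 0.03, edgeR adjusted p 1.78e-14 and 3.22e-16). LTED-A (407, 426 and 428 CPM) and LTED-E (543, 535 and 540 CPM) also lay above all parental samples, at 0.16 and 0.53, under the fold minimum. In SUM44F cells CA12 was at 294, 307 and 261 CPM. It rose to 833 and 844 CPM in LTED-A and to 1212, 1269 and 1245 CPM in LTED-B, 2.92-fold and 4.32-fold (log2 fold changes 1.55 and 2.11, SE 0.10 in each, edgeR adjusted p 1.27e-06 and 6.29e-08).

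PDZK1 (ENSG00000174827, chromosome 1, 145670852 to 145708148), a scaffold with PDZ domains that anchors transporters at the membrane, was lower in LTED cells of both lines. MM134 parental cells had 11.2, 9.28 and 9.68 CPM, LTED-A 3.75, 3.16 and 3.46 CPM, LTED-B 3.39, 2.88 and 2.86 CPM, LTED-D 5.42, 5.58 and 5.92 CPM and LTED-E 2.81, 2.92 and 2.80 CPM. It fell in all 4 variants, with log2 fold changes of -1.54, -1.72, -0.82 and -1.81 (SE 0.09 to 0.10, edgeR adjusted p from 1.43e-11 to 5.68e-07). SUM44F cells had 5.01, 5.45 and 4.70 CPM, LTED-A 1.63 and 1.12 CPM and LTED-B 2.86, 2.40 and 3.38 CPM. The fall was called in LTED-A (log2 fold change -1.90, SE 0.21, edgeR adjusted p = 5.27e-05) and not in LTED-B (-0.80, SE 0.18, adjusted p = 0.00382), although no LTED-B sample reached the lowest SUM44F sample. The copy PDZK1P1 was at 0.332 to 0.918 CPM in the group means, and how fragments common to both were divided depends on the authors' estimate.

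SIAH2 (ENSG00000181788, chromosome 3, 150741125 to 150763477), an E3 ubiquitin ligase, had log2 fold changes from -0.75 to 0.73 over the 6 variants. MM134 parental cells had 32.1, 33.8 and 33.0 CPM and LTED-E had 18.4, 19.2 and 20.6 CPM, a log2 fold change of -0.75 (SE 0.05, edgeR adjusted p = 4.81e-10). LTED-A (22.8, 21.5 and 23.1 CPM) and LTED-B (21.5, 23.0 and 23.3 CPM) lay below the parental samples at -0.56 and -0.54, just under the fold minimum, and LTED-D (30.8, 33.4 and 35.7 CPM) overlapped them. In SUM44, SUM44F cells had 24.3, 23.3 and 19.9 CPM and LTED-A 35.0 and 39.6 CPM, a rise of 0.73 (SE 0.10, edgeR adjusted p = 0.000184) that was lost when SUM44 LTED-A was represented by replicate 1 alone (0.64, adjusted p = 0.00145). LTED-B had 29.7, 31.4 and 29.9 CPM (0.43, adjusted p = 0.00258, not called). The antisense gene SIAH2-AS1 had group means of 0.325 to 0.554 CPM.

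To test the difference between the lines, the average log2 fold change over the 2 SUM44 variants was subtracted from that over the 4 MM134 variants. The SE and p-values of this difference come from the spread between wells and do not cover the spread between variants of a line. It passed both thresholds for 6 of the 10 genes, 5 lower in MM134 (10.2% of all genes) and 1 higher (10.8%). The latter was CXCL12, which passed the filter through MM134 and was at 0 to 4 counts in the SUM44 LTED samples, so no difference is given for it. NRIP1 differed by -1.33 (SE 0.07, edgeR adjusted p = 2.64e-13), CA12 by -1.20 (SE 0.05, adjusted p = 3.03e-14) and RET by -1.12 (SE 0.06, adjusted p = 5.59e-13). SIAH2 differed by -1.05 (SE 0.08, edgeR adjusted p = 2.91e-10) and GREB1 by -0.89 (SE 0.06, adjusted p = 7.86e-11). The value of GREB1 rests on MM134 LTED-A. With that variant left out it was -0.44 (SE 0.06, edgeR adjusted p = 6.53e-06), under the fold minimum, and MM134 LTED-B lay above SUM44 LTED-A in log2 fold change (0.11 and -0.02). NRIP1, CA12, RET and SIAH2 were called with any 1 of the 6 variants left out, between -0.89 and -1.47. Single variants could still lie close: RET was at 0.13 in MM134 LTED-D and 0.18 in SUM44 LTED-B, and SIAH2 at 0.03 and 0.43. For CA12 all 6 log2 fold changes are above 0 and those of SUM44 are larger, whereas NRIP1 fell in MM134 and was above 0 in SUM44. MYB differed by -0.45 (adjusted p = 8.45e-06), under the fold minimum, and passed it without MM134 LTED-B (-0.60) or SUM44 LTED-A (-1.00). For AREG and PDZK1 the difference was -0.30 (95% interval -0.60 to 0.01) and -0.13 (-0.43 to 0.17), and for PGR it was 1.53 (-0.13 to 3.19), or 0.02 (SE 0.39) without SUM44F replicate 1.

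**Figure D4:**
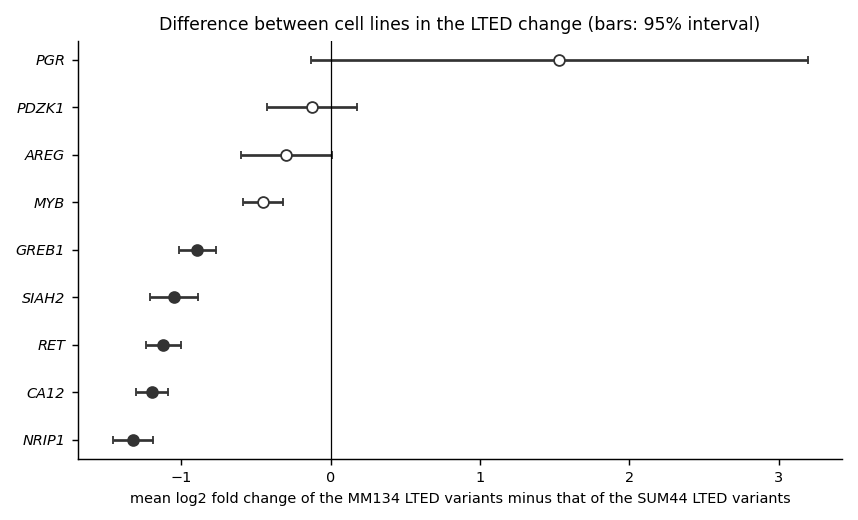
Average log2 fold change over the 4 MM134 LTED variants less that over the 2 SUM44 LTED variants for each gene, with its 95% interval; filled points passed both thresholds of the call. NRIP1, CA12, RET, SIAH2 and GREB1 lie between -1.33 and -0.89, the intervals of AREG, PDZK1 and PGR include 0, and CXCL12 is left out because SUM44 LTED cells had at most 4 counts of it.

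Before long deprivation the 2 lines already differed. Of the 10 genes 5 were higher in MM134 parental than in SUM44F cells and 1 lower, where 18.9% of all genes were higher and 19.2% lower. AREG was 17.1-fold higher (log2 difference 4.10, SE 0.12, edgeR adjusted p = 3.58e-18). CXCL12, 1 of the 5, passed the filter on low counts through MM134, where it is high, so its difference is a description. It was 69.3-fold higher (log2 difference 6.11, SE 0.31). Without SUM44F replicate 1 the log2 difference was 7.61, when 19.1% of all genes were higher. NRIP1 was 2.73-fold, PDZK1 1.97-fold and GREB1 1.55-fold higher (edgeR adjusted p 1.08e-15, 3.93e-07 and 5.7e-10), the last not called without SUM44F replicate 3 (log2 difference 0.57). MYB was lower, at 0.561 of the SUM44F level (log2 difference -0.83, edgeR adjusted p = 1.97e-11). SIAH2, at 0.54, was not called but passed at 0.60 without SUM44F replicate 1. PGR changed sides with that library, at -0.62 (adjusted p = 0.33) with it and 0.88 (SE 0.39, adjusted p = 0.0547) without it.

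SUM44PE and SUM44F cells are the same line kept in different media. Of the 10, 4 were higher in SUM44PE than in SUM44F cells and 0 lower, where 2.85% of all genes were higher and 2.72% lower. AREG, at 3.96, 4.64 and 4.05 CPM in SUM44PE cells, was 3.83-fold higher (log2 difference 1.94, SE 0.18, edgeR adjusted p = 4.86e-06). GREB1 was 1.72-fold, CA12 1.69-fold and NRIP1 1.54-fold higher (edgeR adjusted p 3.06e-06, 2.48e-05 and 4.95e-05), from SUM44PE samples at 464, 501 and 502 CPM for CA12 and 174, 184 and 179 CPM for NRIP1. PDZK1 (8.51, 8.46 and 8.34 CPM, log2 difference 0.73, adjusted p = 0.00266) and MYB (71.1, 77.1 and 74.7 CPM, 0.55, adjusted p = 4.59e-05) missed 1 of the thresholds. PDZK1 was called without SUM44 LTED-A replicate 1 (0.76, adjusted p = 0.00075), and MYB without SUM44F replicate 3 (0.61, edgeR adjusted p = 9.31e-05) or SUM44PE replicate 1 (0.60, adjusted p = 0.000104). RET was the member below SUM44F cells in every SUM44PE sample, at 41.8, 44.9 and 44.8 CPM (-0.46, adjusted p = 0.000316, under the fold minimum). PGR was at 1.41, 1.60 and 1.39 CPM, with a log2 difference of -1.49 that became 0.03 without SUM44F replicate 1. CXCL12 differed by -0.54 with that library and by 1.15 without it, neither called (adjusted p 0.682 and 0.187). SIAH2 stood at 29.1, 31.4 and 32.9 CPM (0.46, not called). In group means the SUM44 LTED levels of NRIP1 lay above SUM44F and below SUM44PE cells, and those of CA12 above both.

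Ordered by group mean within a line, 7 of the 40 neighbouring pairs in MM134 and 7 of the 30 in SUM44 passed the call, and each count is read against the share of all genes called between the groups. In MM134 that share was 20.3%, 15.9%, 17.6% and 19% between parental cells and the variants A, B, D and E in turn. It was 7.06%, 9.88% and 7.84% between LTED-A and the other 3 variants, 7.4% and 9.78% between LTED-B and LTED-D or LTED-E, and 11.6% between LTED-D and LTED-E. In SUM44 it was 16.2%, 19.2% and 5.57% between SUM44F and LTED-A, LTED-B and SUM44PE, 14.3% and 20.2% between SUM44PE and LTED-A or LTED-B, and 9.21% between the variants. Sample ranges overlapped in 12 and 9 of the pairs. The share of all genes with such an overlap was not computed, so these counts are not read as a result about the genes. The steps called in MM134 were from parental cells to the next group for PGR, PDZK1, AREG, NRIP1 and RET, from LTED-D to LTED-A for PDZK1, and from LTED-E to LTED-A for GREB1. For AREG, LTED-A and LTED-E overlapped, as did LTED-B and LTED-D, and for CXCL12 parental cells, LTED-A and LTED-E overlapped in turn. In SUM44, where the order was tested in the fit that includes SUM44PE, the steps of AREG from SUM44PE to SUM44F and from SUM44F to LTED-A were called (the latter with edgeR adjusted p = 0.000182, although the fit without SUM44PE gave 0.00171, no call), as were those of CA12 from LTED-A to SUM44PE to SUM44F and that of MYB from LTED-B to SUM44PE. PDZK1 went from SUM44F to LTED-B to LTED-A with both steps called (edgeR adjusted p 0.000812 and 0.000494). Per kilobase of exons, CA12 was the most abundant of the 10 in MM134 parental and SUM44F cells, at 53.6 and 41.0 CPM per kb. PGR was lowest in MM134 at 0.182 CPM per kb and CXCL12 in SUM44F at 0.106 CPM per kb, or 0.0308 CPM per kb without SUM44F replicate 1.

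Over the 9 group means the patterns of the 10 genes differed. The highest Pearson correlations of log2(CPM + 1) were 0.84 between CXCL12 and AREG, 0.80 between RET and SIAH2, and 0.75 between AREG and NRIP1, and the lowest was -0.80 between MYB and CXCL12. With 9 points that fall into 2 cell lines these describe the groups and carry no test. Among 19604 genes, those most like GREB1 were DHRS7 (r = 0.86) and FUNDC2 (0.83), and every other member had a closer match. The most like genes were SPOCK2 (0.98) and an unnamed RNA gene for PGR, TGIF2-RAB5IF (0.96) for PDZK1, VPS28 (0.98) and an unnamed gene for MYB, and YOD1 and an unnamed gene (both 0.998) for CXCL12. They were PPP5D1P (0.98) and DSTNP1 (0.97) for AREG, TMC3-AS1 (0.95) and an unnamed gene for NRIP1, H4C1 and MARVELD2 (both 0.95) for CA12, SNORA9 and ENSG00000235609 (both 0.95) for RET, and SLC22A17 (0.97) and RHOT2 (0.93) for SIAH2.

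A list of 24 other estrogen-induced genes also split in both directions. In MM134, for the variants A, B, D and E in turn, falls numbered 10, 7, 11 and 12 of the 24 and rises 6, 6, 7 and 5, with median log2 fold changes of -0.37, 0.02, -0.16 and -0.62. Of all genes, 9.82%, 7.75%, 7.95% and 10.3% fell in these variants and 10.5%, 8.11%, 9.63% and 8.71% rose. In SUM44, 3 fell in each variant, and 10 rose in LTED-A and 12 in LTED-B, with medians of 0.25 and 0.51. There 7.28% and 8.57% of all genes fell and 6.39% and 8.69% rose. TFF1, the secreted trefoil peptide first isolated as an estrogen-induced transcript of MCF-7 cells, was the gene that rose most in all 6 variants. It went from 4.32, 4.31 and 4.31 CPM in MM134 parental cells to 569, 584 and 629 CPM in LTED-A, to 540, 588 and 575 CPM in LTED-B, to 2433, 2341 and 2511 CPM in LTED-D and to 982, 1042 and 1039 CPM in LTED-E. These are log2 fold changes of 7.10, 7.04, 9.15 and 7.90 (edgeR adjusted p from 3.63e-24 to 4.57e-23), in cells where PGR, AREG, NRIP1 and PDZK1 all fell. In SUM44 it went from 16.1, 16.4 and 12.7 CPM to 307 and 367 CPM (LTED-A) and 288, 326 and 350 CPM (LTED-B), with log2 fold changes of 4.49 and 4.42 (edgeR adjusted p 5.61e-09 and 3.02e-09). At the other end, ELOVL2, an elongase of polyunsaturated fatty acids, had the lowest log2 fold change in MM134 LTED-A (-5.46), and HSPB8, a small heat shock protein, in LTED-B, LTED-D and LTED-E (-6.39, -5.96 and -5.95, edgeR adjusted p from 2.47e-20 to 2.76e-16). In SUM44 the lowest were ADORA1, an adenosine receptor, in LTED-A (-1.46, edgeR adjusted p = 4.26e-05, and not called without SUM44 LTED-A replicate 1, -1.37, adjusted p = 0.0013) and IL17RB, a receptor of interleukin 17 family ligands, in LTED-B (-1.93, adjusted p = 4.22e-08). Of the 4 estrogen-repressed genes listed, 3 were tested (CCNG2, ERBB2 and BLNK). In the MM134 variants 2, 1, 2 and 3 of these fell, in SUM44 LTED-A 1 and in LTED-B 2, and 0 rose in any variant. The shares of all genes given above for each variant apply here too.

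**Figure D5:**
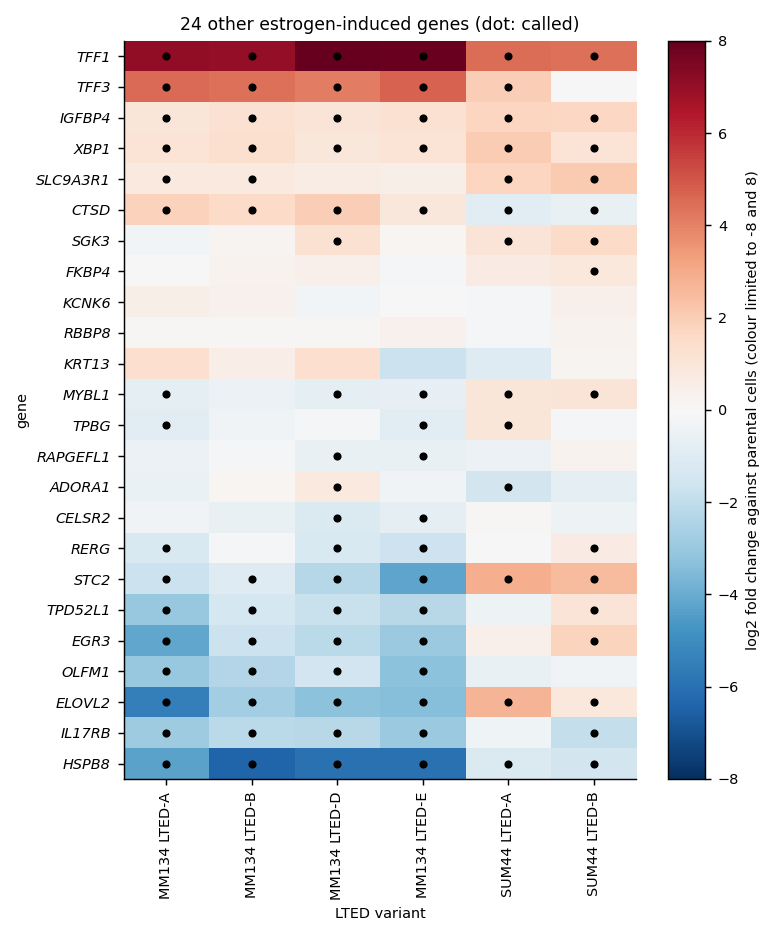
Log2 fold change of 24 other estrogen-induced genes in the 6 LTED variants against the parental cells of the line, as colour limited to 8 in either direction, rows ordered by the mean over the variants; dots mark calls. TFF1 is at the top in every column, from 4.42 to 9.15, HSPB8 at the bottom is lower in all 6, and ELOVL2, STC2, EGR3 and TPD52L1 are called lower in all MM134 variants and higher in at least 1 SUM44 variant.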

How the data were processed

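Total RNA libraries of MM134 and SUM44 cells (TruSeq stranded total RNA kit) were sequenced on an Illumina HiSeq instrument. Salmon 0.6.0 was run by the authors with the Ensembl release 82 annotation of hg38, and the estimated counts they deposited for 60619 genes are not whole numbers and not normalized. Trimming and the strand setting are not given in the sources used here. Ensembl IDs were matched to GENCODE v44 (hg38) for symbols, positions and exon lengths. The members and lists were chosen with earlier results of these data known.

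Counts were rounded. Replicates 2 and 3 of SUM44 LTED-A were averaged. Genes were filtered with filterByExpr and tested by TMM and the quasi-likelihood F-test of edgeR 4.0.16 (two-sided, Benjamini-Hochberg over all genes) in R 4.3.3. There was 1 fit for MM134 (26061 genes), 1 for SUM44F and the SUM44 variants (26834), 1 that added SUM44PE (27457) and 1 of both lines (29200) for the parental comparison and the difference between lines. The SE is the fold change divided by the root of F. A group was taken as below detection where no library exceeded 3 counts. Figures left out the fold change of a member in a group with a mean of at most 3 counts.

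Named beside the members were their receptors, ligands and cofactors from a list, the gene of the induced list that rose and fell most in each comparison, overlapping genes and copies, and the 2 genes with the highest Pearson correlation over the 9 group means, of which 1 is not reported here. Same-numbered wells did not deviate together (median correlation -0.0043 in MM134 and 0.017 in SUM44), so replicate numbers were not used as a block. Alternatives were RLE size factors, no filter, 10 counts in every sample, DESeq2 1.42.0, an adjusted p under 0.05 with no fold minimum, a replicate block, thinning of all libraries to the smallest, each sample left out, each LTED variant left out of the difference between lines (added after seeing the data), SUM44 LTED-A replicates kept separate, and SUM44PE in the SUM44 fit. The procedure was tested on simulated data. Intervals and detection limits cover counting error or the spread between wells only. Figures were drawn with matplotlib 3.10.9. The microarray data and the other cell line experiments of the study were not analysed here.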

Additional observations from a re-analysis of the deposited data

Results flagged for a closer look

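For 5 of the 10 genes the change in LTED cells differed between the cell lines by the test of the difference itself, in which the average change of the SUM44 variants was subtracted from that of MM134 (log2 scale, edgeR, adjusted over all genes). The values were -1.33 for NRIP1, -1.20 for CA12, -1.12 for RET, -1.05 for SIAH2 and -0.89 for GREB1, with edgeR adjusted p from 3.03e-14 to 2.91e-10. These p-values measure the spread between wells and do not cover the spread between variants of a line. Of all genes, 10.2% were called in this direction. The value of GREB1 was -0.44, under the fold minimum, with MM134 LTED-A left out.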

How the results depend on the processing

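Wells of 1 culture limit these tests to the cultures sequenced, and the low counts of PGR and CXCL12 in SUM44 limit what can be said of them. Of the members' fold changes over 9 comparisons, 630 kept their direction and side of the thresholds under the alternatives other than leaving out a sample, 48 passed only there, 1 was lost and 3 changed sign; with a sample left out, 1299 stayed, 9 passed, 10 were lost and 8 changed sign. Same-numbered wells did not pair, and the replicate block gave 2 falls of members in each SUM44 variant, where 1 was reported, PGR being the addition, ended the calls of FOXA1 and GATA3 in SUM44, and changed no other count of members. The falls of members in SUM44 LTED-A were 4 with an adjusted p under 0.05 and no fold minimum, 4 with no filter, 3 with its replicates separate, and 2 with at least 10 counts, with DESeq2 or with SUM44PE in the fit. In SUM44 LTED-B they were 4 at an adjusted p under 0.05, and 3 with DESeq2, no filter or SUM44PE in the fit. In the difference between lines, CXCL12, for which no value is given, no longer passed with at least 10 counts, with thinned counts, or with SUM44 LTED-A or LTED-B left out of the difference, which left 0 genes higher in MM134. With SUM44 LTED-B left out (an alternative chosen after seeing the data), the differences of PDZK1 and MYB became 0.43 and 0.10. With an adjusted p under 0.05 and no fold minimum, the members called higher were 1 in MM134 LTED-A, 2 in LTED-D, 2 in LTED-E, 4 in SUM44 LTED-A, 5 in SUM44 LTED-B, 7 in SUM44PE and 8 in MM134 parental cells, 1 was lower in SUM44PE, and 26 and 20 neighbouring pairs of the order were called. Of the 24 other induced genes, 7 and 6 then fell in SUM44 LTED-A and LTED-B, and 11 and 8 rose in MM134 LTED-B and LTED-E. The share of all genes called at an adjusted p under 0.05 with no fold minimum was not computed. Counts at that threshold are thus not read as a result about the genes.

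Leaving out 1 sample at a time, the falls of members ranged from 1 to 2 in SUM44 LTED-A and from 0 to 2 in LTED-B, the rises from 1 to 3 in SUM44 LTED-A and from 1 to 2 in MM134 LTED-B, and the higher values in the difference between lines from 0 to 1. SUM44 neighbouring pairs ranged from 4 (without SUM44PE replicate 1) to 8, and falls of other induced genes in SUM44 LTED-A from 1 (without its replicate 1) to 4. Signs changed for values near 0 or that rest on SUM44F replicate 1. GREB1 in SUM44 LTED-A became 0.017 with DESeq2, 0.016 with RLE factors and 0.0073 with SUM44PE in the fit, 0.027 without SUM44F replicate 1, and ranged from -0.067 to 0.042 with a sample left out. Over the samples left out, MYB in SUM44 LTED-A ranged from -0.064 to 0.19, SIAH2 in MM134 LTED-D from -0.018 to 0.083 and GATA3 in MM134 LTED-B from -0.10 to 0.024. Against SUM44F cells, PGR ranged from -1.05 to 0.88 in MM134 parental and from -1.91 to 0.033 in SUM44PE cells, and CXCL12 from -1.00 to 1.15 in SUM44PE cells, the highest each time without SUM44F replicate 1. The causes were not tested.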

Other observations

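Among the other estrogen-induced genes, 4 were called lower in all 4 MM134 variants and higher in at least 1 SUM44 variant. The share of all genes with this pattern was not computed. STC2, a secreted glycoprotein hormone, was at 40.0, 36.2 and 35.6 CPM in MM134 parental cells and at 1.95, 1.80 and 2.23 CPM in LTED-E, and rose in SUM44 from 76.8, 77.4 and 66.3 CPM to 521 and 559 CPM in LTED-A (log2 fold change 2.88, edgeR adjusted p = 8.94e-09). ELOVL2 rose in SUM44 LTED-A by 2.69 on the log2 scale (adjusted p = 1.93e-08) and fell in MM134 by 2.76 to 5.46. EGR3, an immediate early factor, fell in MM134 by 1.72 to 4.17 and rose in SUM44 LTED-B by 1.81 (edgeR adjusted p = 0.000646). TPD52L1 fell in all 4 MM134 variants and rose in SUM44 LTED-B (1.04). TFF3, the trefoil peptide next to TFF1, rose in all 4 MM134 variants by 4.08 to 4.72 and in SUM44 LTED-A by 1.95, and was at -0.01 in SUM44 LTED-B. These genes were chosen for mention after their values were seen.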
